A study of Homo sapiens with 9 samples.

Results

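The sites described here are SF3B1 binding sites that stand alone, with 1 or more further sites at about the length of an exon. They were chosen from the distances in the deposited list itself: a site qualified when no other site centre lay within 100 nt on the same strand and at least 1 lay 140 to 180 nt away. Of 96852 sites, 35067 were single in this sense, with no other centre within 100 nt, and 5637 of these also had a neighbour at 140 to 180 nt. These 5637 are called spaced single sites below. They made up 5.82% of the list and 16.1% of the single sites. Both shares follow from the rule and are given as a description only.

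SF3B1 is the large subunit of the SF3b complex in the U2 small nuclear ribonucleoprotein (snRNP). The U2 snRNP pairs with the branch point, a nucleotide near the 3′ end of an intron, and SF3B1 holds the RNA on both sides of it. Recognition often starts across an exon, with U2 at the upstream end of the exon and U1 at its downstream end. U2 and U1 then lie about the length of an exon apart, which does not by itself set the distance between SF3B1 sites. Whether an exon lay between a spaced single site and its neighbour was not analysed here, because no annotation of exons was used.

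The sites came from iCLIP, in which ultraviolet light links a protein to the RNA it touches, the protein is immunoprecipitated and the linked nucleotides are read by sequencing. The cells were K562, an established human leukaemia line; the labels call its origin chronic lymphoid, whereas the line is generally known as chronic myeloid. The series held 9 samples: iCLIP of SF3B1 in 3 samples with the genotype SF3B1 wt/wt and 2 with SF3B1 K700E/wt, and of U2AF2 in 4 samples with SF3B1 wt/wt; ultraviolet crosslinking is the only treatment in the labels. The labels attach the 1 list used here to the 3 SF3B1 samples with SF3B1 wt/wt, whose cells came from Horizon Discovery, while those for U2AF2 came from ATCC; whether a line is 1 clone is not stated, and the other 6 samples were not analysed here. Per the file header, sites had to recur in all the replicates of at least 1 condition, which is not named, so no site can be assigned to a genotype. The list gives positions and strand but no reads, and its score is 0 for every site, so depth and the spread between cultures are unknown and no test between samples was possible; nor could the cell type be checked against marker genes. Intervals below are 95% Wilson intervals for counting error only; sites of 1 gene are not independent, so these intervals are too narrow.

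Neither the list nor its header names a genome build; the submitters' processing notes name GRCh38. With positions as listed, 97.8% of the spaced single sites lay in a RefSeq protein-coding gene of GRCh38.p14, and after a shift of 10 kb 81.9% did. Where RefSeq gave the strand of the gene, 4538 of 4557 spaced single sites (99.6%, interval 99.3% to 99.7%) lay on that strand. Upstream and downstream below therefore mean the direction of the strand in the list.

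Sequence could be read for the few sites that fell in a RefSeq promoter window (250 bases before to 50 bases after an annotated gene start) or in a microRNA hairpin. These windows held 16 spaced single sites, 0.284% of them, against a background of 0.289% of all sites and 0.356% of single sites. The sites at gene starts are shown because 7 of these 16 had their centre within 10 nt of the annotated start. Each line gives 30 bases from RefSeq (GRCh38.p14), 5′ to 3′ on the strand of the gene, with the 5 nt of the site in capitals.
RPLP2: gcgtcggcgccttCCTTTtcctccctgtcg
RPL10A: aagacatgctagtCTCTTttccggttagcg
SRP9: gaggaggcgccgcCATCTtggggctgctgg
HMGA1: cccctgggtcgctCTTTTtaagctcccctg
SLC26A6: tcctagaaagaggCTTTCtcaccagccaaa
ZFAS1: gaagccattcgttCTTTCgcgtctgcggtg
SNHG8: cgaaggcctcggcCTTTCacattcgggaag

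In all 7 genes the neighbour lay downstream. The choice of sites at gene starts largely fixed this side, since an upstream neighbour would lie before the annotated start. The side is therefore given as a description only. RPLP2, which encodes a protein of the ribosomal stalk, had its site centre 2 nt after the gene start (chr11:809967-809971, plus strand) and a single neighbour 148 nt further on. RPL10A, a protein of the large ribosomal subunit, had its centre 5 nt after the start (chr6:35468404-35468408, plus strand) and a single neighbour at 151 nt. SRP9, a subunit of the signal recognition particle, had its centre 7 nt after the start (chr1:225777831-225777835, plus strand) and a neighbour at 159 nt. These 3 genes serve protein synthesis and export, and in none of them was the neighbour 1 of a close pair.

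HMGA1, an architectural chromatin protein, had its site centre 2 nt after the start (chr6:34236873-34236877, plus strand) and a neighbour 153 nt downstream that was 1 of a close pair. SLC26A6, an anion exchanger, had its centre 9 nt after the start (chr3:48633835-48633839, minus strand) and a paired neighbour at 145 nt. ZFAS1 and SNHG8 are long non-coding RNA genes that host small nucleolar RNAs. ZFAS1 had its centre 2 nt after the start (chr20:49278642-49278646, plus strand) and a paired neighbour at 150 nt. SNHG8 had its centre 2 nt before the start (chr4:118278758-118278762, plus strand) and a single neighbour at 152 nt. The distances in the 7 genes thus ran from 145 to 159 nt, in the lower part of the range that the rule allowed.

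Sites at gene starts were not limited to the spaced ones. Within 10 nt of a start lay 48 of the 125 single sites in promoter windows (38.4%, interval 30.3% to 47.2%), 7 of the 16 spaced single sites (43.8%, interval 23.1% to 66.8%) and 75 of all 280 sites there (26.8%, interval 21.9% to 32.3%). The 3 intervals overlap, so the spaced sites could not be set apart from other single sites at this number. The bases at the sites were rich in T. Of the bases in the 16 spaced single sites, 68.8% were T and 22.5% C, against 57.1% and 23.3% in all 280 sites. The central base was T in 15 of 16 against 208 of 280. The 280 sites include these 16, and the differences were not tested.

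**Figure D1:**
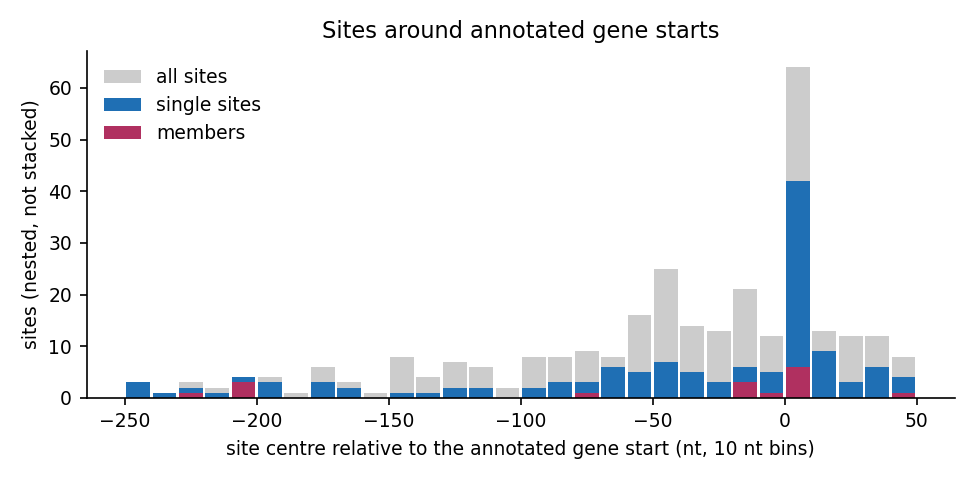
Number of site centres per 10 nt (y axis) against the distance from the annotated gene start (x axis, nt) for all 280 sites, 125 single sites and 16 spaced single sites in promoter windows; the bars are nested, not stacked. The 10 nt that begin at the start held 64 of all sites, 42 of the single sites and 6 of the spaced single sites.

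MicroRNA hairpins contained 2 spaced single sites, out of 55 sites of the whole list that lay in 1 of the 1562 hairpins of the RefSeq table. Counted over the spans of microRNA genes on either strand, 3 of 72 sites were spaced single sites (4.17%, interval 1.43% to 11.5%). That interval includes the background of 5.82% of all sites, so no excess in microRNA genes was detectable. The hairpins are shown 5′ to 3′ with the 5 nt of the site in capitals (RefSeq, GRCh38.p14).
MIR6515: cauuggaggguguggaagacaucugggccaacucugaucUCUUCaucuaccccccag
MIR224: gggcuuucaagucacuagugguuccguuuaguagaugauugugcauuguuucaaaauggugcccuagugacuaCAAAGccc

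In MIR6515, which lies in CALR, the gene of the endoplasmic reticulum chaperone calreticulin, the site covered bases 40 to 44 of the 57-base hairpin (chr19:12940523-12940527, plus strand). Its neighbour lay 160 nt downstream and was paired. In MIR224, which lies in GABRE, the gene of a GABA-A receptor subunit, the site covered bases 74 to 78 of the 81-base hairpin (chrX:151958581-151958585, minus strand), with a single neighbour 159 nt downstream. Both sites lay in the 3′ part of the hairpin.

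The neighbour was upstream more often than downstream. Of the 5637 spaced single sites, 3066 (54.4%) had neighbours at 140 to 180 nt on the upstream side only, 2253 (40.0%) on the downstream side only and 318 (5.64%) on both sides. Among those with a neighbour on 1 side, 57.6% (interval 56.3% to 59.0%) had it upstream, a ratio of 1.36. The plus strand gave 58.0% (interval 56.1% to 59.8%) and the minus strand 57.3% (interval 55.4% to 59.2%). Sites with an upstream neighbour outnumbered those with a downstream neighbour on all 23 chromosomes, with shares from 51.2% on chromosome 14 to 63.7% on chromosome 18.

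The same rule with other distances gave the comparison. Single sites with a neighbour at 200 to 240 nt (4531 sites) had it upstream in 55.8% of the 1-sided cases (interval 54.3% to 57.3%), those with a neighbour at 260 to 300 nt (3736 sites) in 52.7% (interval 51.0% to 54.3%), and those with a neighbour at 320 to 360 nt (3364 sites) in 50.4% (interval 48.7% to 52.2%). Of these 4 distances, all at or beyond 140 nt, the upstream share at 140 to 180 nt overlapped with that at 200 to 240 nt within counting error, and no excess was detectable at 320 to 360 nt. Closer in, the excess was also present. Around all single sites, 540 neighbours lay upstream and 394 downstream at 101 to 110 nt (a ratio of 1.37), 2829 and 2179 at 101 to 140 nt (1.30), and 4325 and 3132 at 141 to 180 nt (1.38). The upstream excess was therefore not particular to a distance of about one exon. Some sites belong to more than 1 of these sets, and the differences between the sets were not tested.

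Neighbours were of 3 types. A paired neighbour had a further site 25 to 45 nt from it, the spacing of the close pairs that are frequent in this list. A single neighbour had no other site within 100 nt, and the remaining neighbours are called other. At least 1 paired neighbour was found for 2098 spaced single sites (37.2%, interval 36.0% to 38.5%), a single neighbour for 2491 (44.2%, interval 42.9% to 45.5%) and an other neighbour for 1462 (25.9%, interval 24.8% to 27.1%); a site with several neighbours can count more than once. Counted once per link between a spaced single site and a neighbour, 38.9% of 7623 neighbours were paired, 33.6% single and 27.6% other, close to the 36.4%, 36.2% and 27.4% of all sites in the list. At 320 to 360 nt the single sites had a paired neighbour in 35.9% of cases (interval 34.3% to 37.5%) and a single neighbour in 40.9% (interval 39.2% to 42.5%).

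The excess of upstream neighbours was carried by the paired and the other neighbours. A paired neighbour lay upstream of 1373 spaced single sites and downstream of 754, a ratio of 1.82. An other neighbour lay upstream of 870 and downstream of 620, a ratio of 1.40. Single neighbours are spaced single sites themselves, so each such pair counts once in each direction and the ratio is 1 by construction (1280 upstream and 1280 downstream). The ratio for paired neighbours was 1.54 at 200 to 240 nt, 1.26 at 260 to 300 nt and 1.07 at 320 to 360 nt, and that for other neighbours 1.29, 1.09 and 0.960. Counted per neighbour around all single sites, the ratio for paired ones was higher closer in. It was 2.75 at 101 to 110 nt (173 and 63), 2.05 at 101 to 140 nt (984 and 480) and 1.79 at 141 to 180 nt (1859 and 1036). It turned round farther out, with 1700 upstream and 1957 downstream at 401 to 500 nt (0.869). Among sites with neighbours of 1 type only and on 1 side only, 1145 had them paired and upstream. Single neighbours lay upstream for 1141 such sites and downstream for 1127, and paired neighbours lay downstream for 587.

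**Figure D2:**
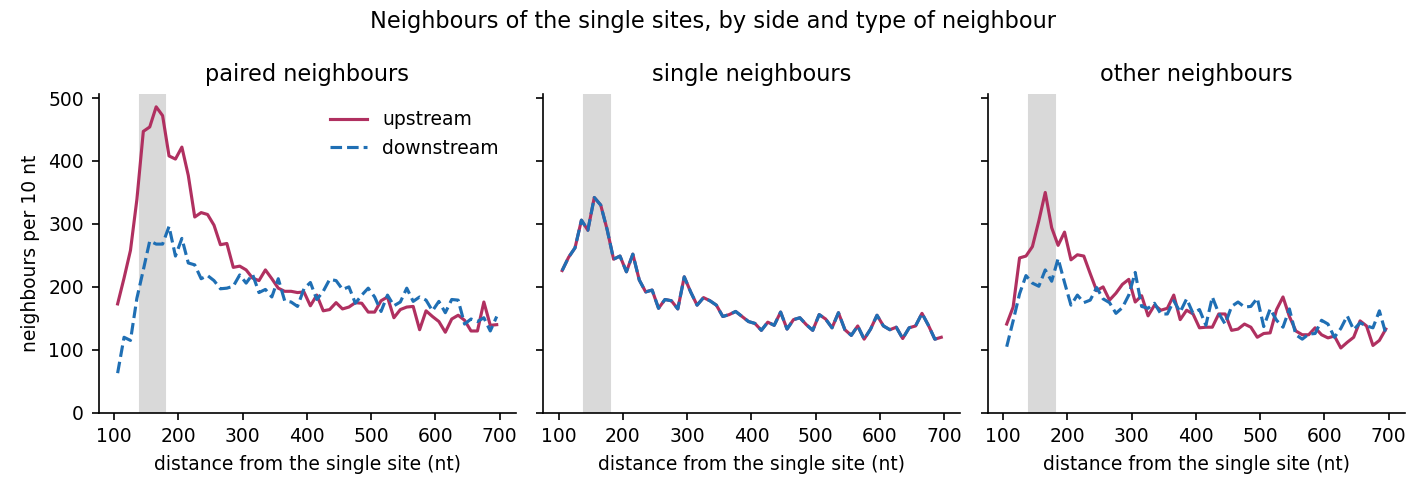
Neighbours per 10 nt of distance (y axis) against the distance from each of the 35067 single sites (x axis, nt), upstream (solid) and downstream (dashed), for paired, single and other neighbours; the grey band marks 140 to 180 nt. Paired neighbours at 161 to 170 nt numbered 486 upstream and 268 downstream, while at 401 to 500 nt the downstream ones were more, 1957 against 1700; the lines for single neighbours coincide by construction.

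**Figure D3:**
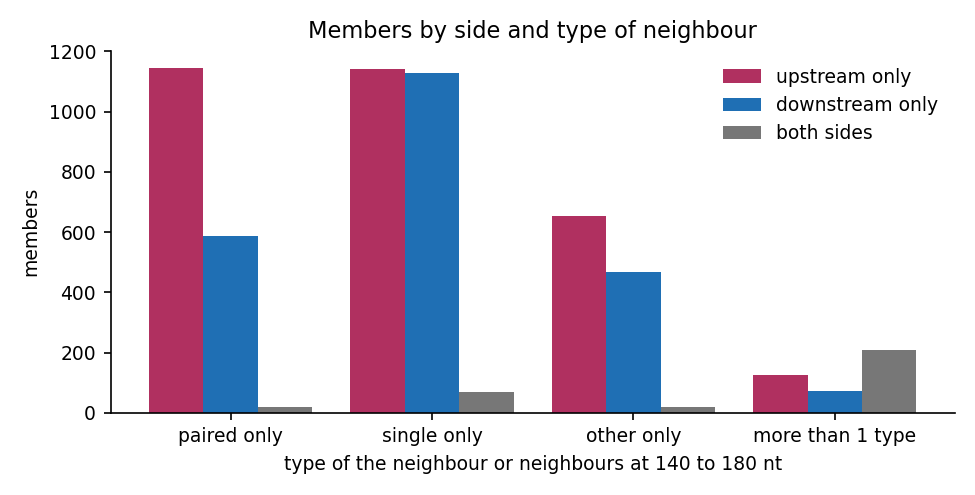
Number of spaced single sites (y axis) by the type of their neighbours at 140 to 180 nt (x axis) and by the side on which these lay. With paired neighbours only, 1145 sites had them upstream and 587 downstream. With single neighbours only the numbers were 1141 and 1127, near equal because each link between single sites counts once in each direction.

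When the neighbour was part of a close pair, either element could lie at 140 to 180 nt. Of the upstream neighbours that were paired, 921 had their partner on the downstream side, towards the spaced single site, 935 on the upstream side and 48 on both. Of the 1058 downstream ones, 465 had their partner upstream, towards the spaced single site, 31 on both sides and the rest on the downstream side only. Neither element of the upstream pairs was thus clearly favoured at this distance.

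Most spaced single sites had a simple surrounding. There was exactly 1 neighbour at 140 to 180 nt for 4053 of them (71.9%), 2 for 1252 (22.2%) and at most 5. A further site at 101 to 139 nt was present for 1551 (27.5%). On the side without a neighbour the distance to the next site varied widely. Its median was 1162 nt (quartiles 360 and 3954 nt) where the neighbour was upstream, and 912 nt (quartiles 300 and 3677 nt) where the neighbour was downstream. It exceeded 1000 nt in 53.2% (interval 51.4% to 55.0%) and 48.2% (interval 46.1% to 50.3%) of these sites, and was at most 400 nt in 27.5% (interval 25.9% to 29.1%) and 33.3% (interval 31.4% to 35.3%).

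Within the allowed range the distances were spread out. Over 7623 links between a spaced single site and a neighbour, the median was 161 nt (quartiles 151 and 170 nt), and the mode was 163 nt after summing 3 adjacent distances. The median was 161 nt for paired neighbours on either side and 160 nt for single ones. At the limits of the rule, 166 single sites had a site at exactly 140 nt and 164 at 139 nt, just outside; 170 had one at 180 nt and 179 at 181 nt. The nearest site lay at exactly 100 nt for 96 sites, which the rule left out, and at 101 nt for 80. The numbers do not break at any limit, so the set is a stretch of a continuous distribution. That distribution was highest inside the range of the rule. Around all single sites, 1166 neighbours lay upstream and 825 downstream at 161 to 170 nt. At 101 to 110 nt the numbers were 540 and 394, and at 321 to 330 nt 547 and 540. The height of this maximum was not tested.

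Spaced single sites were often each other's neighbours. In all, 2491 (44.2%) were linked to another at 140 to 180 nt, in 1147 groups of 2, 59 groups of 3 and 5 groups of 4. The groups of 4 were runs of single sites, of which 4 are given here and 1 lay in 1 other gene. In NXF1, the main mRNA export receptor, 4 sites on the minus strand of chromosome 11 followed each other in steps of 173, 159 and 163 nt (centres from 62796908 to 62797403). In SMC3, a cohesin subunit, the steps on the plus strand of chromosome 10 were 178, 150 and 179 nt (110583646 to 110584153). In ENO1, the glycolytic enzyme enolase, they were 162, 145 and 143 nt on the minus strand of chromosome 1 (8865533 to 8865983). In ENOSF1, which uses another 3′ splice site when SF3B1 is mutated, they were 162, 145 and 179 nt on the minus strand of chromosome 18 (692276 to 692762).

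Spaced single sites lay almost all in genes, as did the sites of the list in general. Fewer of them than of single sites lay in the last 10% of the gene. In 1 protein-coding gene lay 5399 of the spaced single sites (95.8%), 113 lay in several overlapping ones, 125 lay outside protein-coding genes and 18 (0.319%) outside every annotated gene. Of all sites, 94.8% lay in 1 protein-coding gene and 0.519% outside every annotated gene. For single sites these shares were 94.6% and 0.587%. Positions within a gene were measured from its 5′ to its 3′ end along the outermost RefSeq span. The last 10% of the gene held 10.4% of the spaced single sites (interval 9.59% to 11.2%), against 13.0% of single sites (interval 12.7% to 13.4%) and 13.1% of all sites. The comparison sets at 200 to 240, 260 to 300 and 320 to 360 nt lay between, at 11.7% (interval 10.8% to 12.7%), 12.0% (interval 11.0% to 13.1%) and 11.4% (interval 10.3% to 12.5%), and their intervals overlapped with that of the spaced single sites. The first 10% held 4.83% of the spaced single sites (interval 4.29% to 5.44%), against 5.04% of single sites, 4.64% of all sites and 4.07% to 4.30% in the comparison sets. The median position was 0.598 of the gene, against 0.620 for single sites. Sites with the neighbour upstream and downstream did not differ beyond counting error in the last 10% (10.3%, interval 9.24% to 11.4%, and 10.2%, interval 8.99% to 11.5%). In the first 10% they held 4.34% (interval 3.67% to 5.14%) and 5.77% (interval 4.86% to 6.84%).

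**Figure D4:**
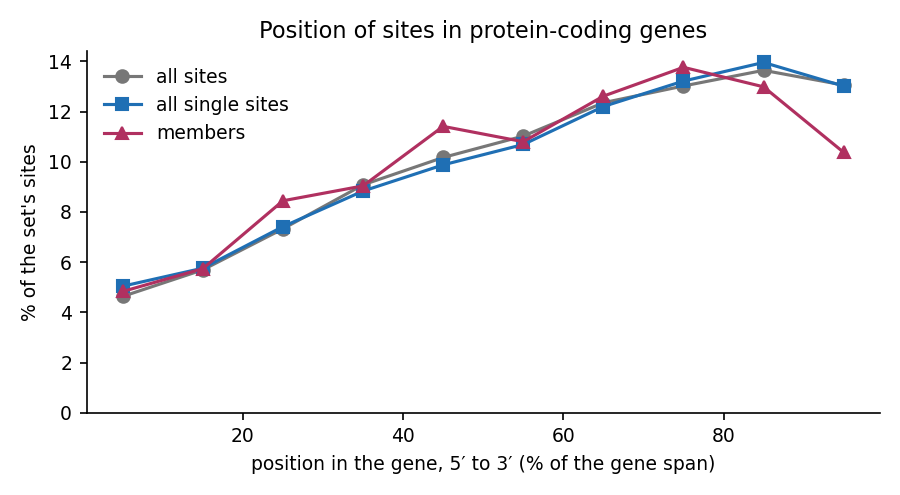
Share of sites (y axis, % of each set in protein-coding genes) in each 10% of the gene span from the 5′ to the 3′ end (x axis, %), for all sites, all single sites and the spaced single sites. The sets run close together along the gene, and in the last 10% the spaced single sites stand at 10.4%, below the single sites at 13.0%.

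The excess of upstream neighbours was higher in long genes. In genes under 20 kb, 53.5% of the 1-sided sites had the neighbour upstream (interval 50.4% to 56.5%), in genes of 20 to 50 kb 55.7% (interval 53.3% to 58.1%), in genes of 50 to 100 kb 59.7% (interval 57.0% to 62.4%), in genes of 100 to 200 kb 62.4% (interval 59.2% to 65.5%) and in longer genes 63.0% (interval 57.3% to 68.3%). The shortest class and the class of 100 to 200 kb did not overlap. For paired neighbours the ratio of upstream to downstream was 1.35 in genes under 20 kb (215 and 159 sites), 1.65 at 20 to 50 kb, 2.28 at 50 to 100 kb, 2.33 at 100 to 200 kb (277 and 119 sites) and 2.07 in longer genes. At 320 to 360 nt the upstream share lay between 49.9% and 51.0% in the 4 classes up to 200 kb and was 55.8% (interval 46.9% to 64.4%) in longer genes. Spaced single sites were 6.51% of all sites in genes under 20 kb and 4.30% in genes of 200 kb and more.

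Of the 7401 protein-coding genes with a site, 2151 had a spaced single site, a background of 29.1%. Their median was 2; 827 genes had 1, 278 had at least 5 and 23 had at least 10. The count followed the number of sites in the gene, which in turn can follow the abundance of its RNA. A spaced single site was present in 2.25% of genes with 1 to 4 sites, 44.1% of genes with 10 to 19 sites, 97.4% of genes with 50 to 99 sites and all 36 genes with at least 100. Counted per gene, upstream neighbours outnumbered downstream ones in 1003 genes, and downstream ones outnumbered upstream ones in 512. In 636 genes the numbers were equal. The 827 genes with 1 spaced single site are included, so many of these counts rest on 1 site. RNA abundance in K562 was not used here, so its part in these counts was not tested.

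The 10 genes with the most spaced single sites had 113 to 279 sites each in all, apart from SFPQ with 69. NUP214, a nuclear pore protein on the cytoplasmic face, had 22 spaced single sites among 247 sites (8.91%; chromosome 9, 131125586 to 131234663, plus strand). In 12 of them the neighbour was upstream, in 8 downstream and in 2 on both sides. They lay between 2.50% and 56.8% of the gene, although 65 further sites of the gene lay downstream of the last of them. The copy number of the gene in K562 was not used here. STXBP5 (tomosyn), which binds syntaxin and restrains vesicle fusion, had 17 among 210 sites (chromosome 6, 147204417 to 147390473, plus strand), with 11 upstream, 4 downstream and 2 on both sides. NBAS, which acts in transport from the Golgi to the endoplasmic reticulum, had 15 among 186 (chromosome 2, 14778909 to 15561334, minus strand), with 7 upstream, 6 downstream and 2 on both. All 15 lay in the first 32.2% of this 782 kb gene, as did most of its sites, with 16 sites beyond the last one.

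SFPQ, a nuclear RNA-binding protein of paraspeckles and splicing complexes, had 15 among only 69 sites (21.7%; chromosome 1, 35176380 to 35193145, minus strand). With 8.95 spaced single sites per 10 kb it was denser than the other 9 genes, which had between 0.192 in NBAS and 2.02 in NUP214. In SFPQ 6 had the neighbour upstream, 8 downstream and 1 on both sides, and 7 had single neighbours only. IARS1, isoleucyl-tRNA synthetase, had 14 among 183 sites (chromosome 9, 92210207 to 92293697, minus strand), with 5 upstream and 8 downstream. UBR4, a giant ubiquitin ligase, had 14 among 279 (5.02%; chromosome 1, 19074510 to 19210266, minus strand), with 6 upstream and 8 downstream. In these 3 genes downstream neighbours outnumbered upstream ones by small counts, and the difference from the general direction was not tested.

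Upstream neighbours prevailed in the other 4 of the 10. PRKDC, the catalytic subunit of the DNA-dependent protein kinase, had 14 among 184 sites, with 9 upstream, 4 downstream and 1 on both sides (chromosome 8, minus strand). PSME4, a proteasome activator, had 14 among 113 (12.4%), with 9 upstream and 3 downstream (chromosome 2, minus strand). SMCHD1, an SMC-like protein of X inactivation, had 13 among 134, with 9 upstream and 4 downstream, and 10 of the 13 had a paired neighbour (chromosome 18, plus strand). PICALM, a clathrin assembly protein, had 12 among 172, with 7 upstream and 4 downstream (chromosome 11, minus strand). Across the 10 genes the distances ran from 140 to 180 nt.

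The arrangement is shown at 1 locus in each of the 5 genes with the most spaced single sites. The locus is the site with a paired neighbour at the distance nearest to the mode, and in all 5 that neighbour lay upstream. All 5 sites had more than 1 upstream neighbour within the range of the rule, and only the neighbour nearest to the mode is described. These loci are thus more crowded than most, since 71.9% of the spaced single sites had exactly 1 neighbour. In NUP214 the spaced single site was at chr9:131187400-131187404 and its neighbour at chr9:131187237-131187241, 163 nt upstream, with the partner 42 nt further downstream, at 121 nt from the spaced single site. On the other side a second spaced single site followed at 161 nt. In STXBP5 the site at chr6:147325771-147325775 had its neighbour 162 nt upstream and the partner at 133 nt, and the next site downstream was 456 nt away. In IARS1 the site at chr9:92262919-92262923 had its neighbour 162 nt upstream, the partner at 131 nt and the next site 283 nt downstream.

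In the other two the partner lay on the far side of the neighbour. In NBAS the site at chr2:15511184-15511188 had its neighbour 162 nt upstream with a partner at 205 nt, and the next site downstream was 6918 nt away. In SFPQ the site at chr1:35186723-35186727 had its neighbour 164 nt upstream with a partner at 194 nt, and the next site lay 328 nt downstream. The distance to the next site on the downstream side thus ran from 161 nt in NUP214 to 6918 nt in NBAS.

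**Figure D5:**
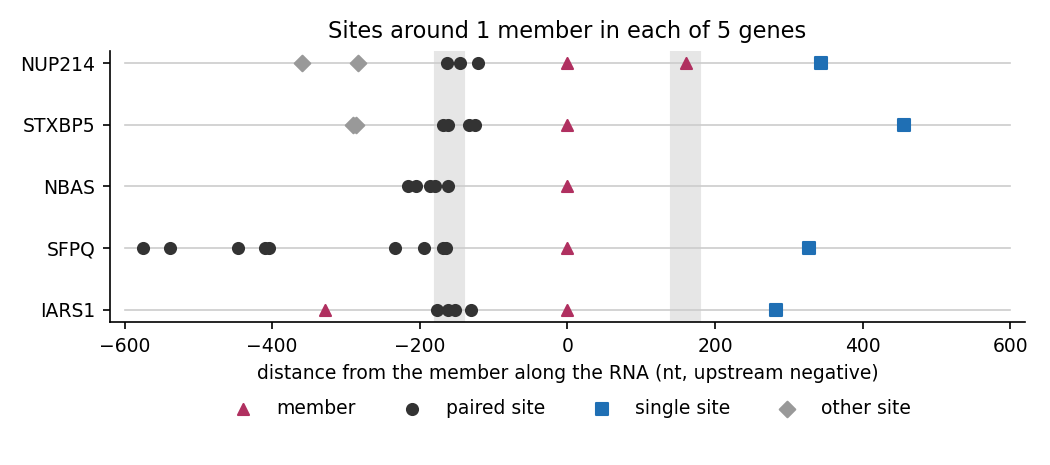
Sites within 600 nt of 1 spaced single site in each of 5 genes, drawn by distance along the RNA (x axis, nt, upstream negative); triangles are spaced single sites, circles paired sites, squares single sites and diamonds other sites, and the grey bands mark 140 to 180 nt. In each gene a group of paired sites stands upstream, and the first site downstream lies from 161 nt away in NUP214 to beyond the frame in NBAS.

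Genes were also described in 11 lists by function. In each list the share of genes with a spaced single site, among those with any site, was above the background of 29.1%, from 3 of 6 genes to 16 of 20; the median gene of each list had 12.5 to 132 sites, against 7 over all genes with a site. The share of sites that were spaced single sites was 5.88% over all genes, but it too went with the number of sites. It was 1.62% in genes with 1 to 4 sites, 3.90% with 5 to 9, 5.50% with 10 to 19, 6.79% with 20 to 49, 7.20% with 50 to 99 and 6.94% with at least 100. Shares of the lists near 6% to 7% are thus close to what genes with many sites had in general.

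In the U2 snRNP and its partners in branch point recognition, 12 of 20 genes had one, and 43 of 522 sites (8.24%) were spaced single sites. U2SURP, a U2-associated protein, had 10 and SF3A3, a subunit of SF3a, had 9 of its 42 sites (21.4%). SF3B1 itself had 3 among 51 sites. Together the neighbour was upstream for 17 and downstream for 21, against 3066 and 2253 over all spaced single sites. In the tri-snRNP and later spliceosome, 9 of 17 genes had one and the share was 5.72%, with PRPF4, a protein of the U4/U6 snRNP, at 4 among 14 sites and SLU7, a second-step splicing factor, at 4 among 8.

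Importins and exportins, which carry cargo through the nuclear pore, had the highest share of the 11 lists, 77 of 825 sites (9.33%), in 17 of 23 genes. CSE1L, the export receptor for importin alpha, had 11 among 57 sites, XPO1, the main protein exportin, 10 among 136, and XPOT, the tRNA exportin, 9 among 85. The neighbour was upstream for 46 and downstream for 29. In the nuclear pore itself 18 of 27 genes had one (86 of 1175 sites, 7.32%), and the counts by direction varied between its genes. NUP155, of the inner ring, had 7 of 8 upstream, whereas NUP210, a membrane protein of the pore, had 2 upstream, 5 downstream and 2 on both sides, and TPR, of the nuclear basket, had 3 upstream and 5 downstream. These counts are small, the genes were picked after their values were seen, and the differences were not tested.

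Aminoacyl-tRNA synthetases had one in 16 of 20 genes (66 of 984 sites, 6.71%), including LARS1, leucyl-tRNA synthetase, with 10. The CCT chaperonin, which folds actin and tubulin, had one in 6 of 8 genes (7.33% of sites), led by TCP1 with 6. Cohesin, condensin and related SMC proteins had one in 13 of 21 genes (6.20% of sites); NIPBL, the cohesin loader, had 8, all of them with a paired neighbour. DNA replication genes had one in 23 of 38 (6.25% of sites), led by TOP2B, a type II topoisomerase, with 7. The PI3K-like kinases had one in 3 of 6 genes, 14 of the 17 in PRKDC, and the lowest share, 4.20%. The giant ubiquitin ligases had one in 6 of 8 genes and 4.65%. Genes with altered 3′ splice sites in SF3B1-mutant cells had one in 8 of 12 genes with a site (22 of 287 sites, 7.67%), led by ENOSF1 with 7 and by SLC3A2, the heavy chain of amino acid transporters, with 5 of its 33 sites. No list was tested, and the lists were chosen with earlier results of these data known.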

How the data were processed

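The authors deposited 1 BED list of SF3B1 sites, which the labels tie to 3 samples with SF3B1 wt/wt. Per the file headers, close sites were merged to a width of 5 nt, and each recurred in every replicate of at least 1 condition; the deposited score is 0 throughout. The submitters' processing notes name the builds GRCh38.p10 and GRCh38.p12 and the tools FastQC 0.11.8, STAR 2.6.1b and 2.7.3a, UMI-tools 1.0.0 and bedtools 2.27.1, without their roles. The site caller is not given in the sources used here. Merging sets how close sites can lie, and a demand for reproducibility can leave out sites in rare RNA, which makes a site appear single.

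Positions were made 1-based and the centre of a site was its position. Gene names and spans were taken from RefSeq (GRCh38.p14); sites in several protein-coding genes were left out of counts per gene. Gene starts and sequences came from 35116 RefSeq promoter windows, and hairpins from the RefSeq microRNA table. The named genes were the 10 protein-coding genes with the most spaced single sites, ties by symbol, and the first gene of each list; other genes, and the gene starts, hairpins, runs, gene length classes and distances nearer than 140 nt or beyond 400 nt, were chosen after their values were seen. The rule for the sites and the gene lists were chosen with earlier results of these data known. Exon positions and the sequence at most sites, which had been planned, were not analysed here. Scripts were tested on simulated data and by direct search. Python 3.11.15, NumPy 2.4.6, pandas 2.3.3, SciPy 1.17.1 and Matplotlib 3.10.9 were used. Alternatives are given in the closing section.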

Additional observations from a re-analysis of the deposited data

How the results depend on the processing

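Each of 8 results was recalculated under 9 to 11 alternatives. Of 77 recalculations, 61 stayed within the 95% Wilson interval of a share or within 1.5 times a count, and 16 moved. The 61 include those with the 5′ end of a site as its position. All sites are 5 nt wide, so this alternative leaves every distance unchanged. For results that rest on distances its outcome was thus fixed in advance. The upstream share of 1-sided sites lay between 55.9% (exactly 1 neighbour at 140 to 180 nt, the value that moved) and 58.0% (plus strand only), above 50% in all 9. The share with a paired neighbour moved to 31.7% with no other site within 120 nt, to 28.4% with exactly 1 neighbour and to 41.3% when the partner could lie 20 to 50 nt away. The share in the last 10% of the gene stayed between 9.62% and 10.8%. With the neighbour at 150 to 170 nt there were 3425 spaced single sites and 20 runs of at least 3, in place of 5637 and 64. The plus strand alone held 2829 sites, 1091 genes, 51 list genes and 37 runs, and the minus strand alone 2808 sites, 1061 genes, 80 list genes and 27 runs, since fewer sites were counted; the minus strand held 1 of the 7 sites at gene starts. Exactly 1 neighbour leaves 0 runs by construction. Alternatives for the runs, the list genes and the gene starts, and the assignment of genes by strand, were chosen after seeing the data. No paired analysis was possible because replicates are merged in these positions, and for that reason none was left out. With no reads given, a site without a close neighbour cannot be told from one whose neighbour was too weak to be called.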

Other observations

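Small nucleolar RNA (snoRNA) genes, most of which lie in introns of host genes and guide the modification of ribosomal RNA, held 8 spaced single sites out of 56 sites of the list in such genes (14.3%, 95% Wilson interval 7.42% to 25.7%), against 5.82% of all sites. These genes were singled out after their values were seen. In 7 of the 8 the neighbour lay downstream only, and in 6 of these a paired neighbour was among those found. In RPS13, a protein of the small ribosomal subunit, the site centre lay 35 nt into the 92-nt SNORD14A, with a paired neighbour 179 nt downstream. In HSPA8, the constitutive HSC70 chaperone, it lay 40 nt into the 80-nt SNORD14E, with a paired neighbour at 151 nt. In RPL21, a protein of the large ribosomal subunit, it lay 21 nt into the 72-nt SNORD102, with a paired neighbour at 151 nt. SNORD93 had the only upstream neighbour of the 8, a single site at 178 nt.

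Long non-coding RNA genes held 273 spaced single sites among 5243 sites (5.21%), 78 of them outside protein-coding genes. SNHG1, a snoRNA host, had 5 among 22 sites, and MIR17HG, the host of the miR-17 cluster, had 4 among 36. SNHG8 had 3 among only 5 sites. Transcribed pseudogenes held 29 among 781 sites (3.71%), against 5.82% over the list.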
